A study of Mus musculus with 4 samples.

Results

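Glutathione is the main small thiol of the cell, and the set described here holds 9 genes that make it, recycle it, use it against peroxides or control these steps. The genes are Gpx1, Gpx4, Gsto1, Gclm, Gclc, Gss, Gsr, Nfe2l2 and Keap1. They were taken by gene symbol from tables that list 47445 gene identifiers, and each of the 9 had 1 row in every table.

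The series measured RNA in C57BL/6N mouse embryos at the late 2-cell stage, when the embryo's own genome is becoming active. In the first group, held in 2 libraries, 1 siRNA against Uqcc3, an assembly factor of respiratory complex III, was injected at 5 µM and 8 hpi, an abbreviation the labels do not spell out. Controls, also 2 libraries, were injected with a negative-control siRNA on the same schedule per the labels' protocols, whereas their treatment label reads "none" and the design text calls them normal embryos. The females were 8 weeks old, and the labels' protocols state that injected embryos of normal morphology were kept, so embryos with visible defects are not represented. The number of embryos in a library, and whether replicates came from separate mice or days, are not given in the sources used here, so the p-values reflect library-to-library spread that may be technical. Sample titles end differently in the 2 groups, and if that marks a batch, batch and siRNA cannot be told apart.

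Glutathione is built in sequence. Glutamate-cysteine ligase, made of the catalytic subunit GCLC and the modifier subunit GCLM, joins glutamate to cysteine, and glutathione synthetase, the product of Gss, adds glycine. Glutathione peroxidases oxidise glutathione while reducing peroxides, and glutathione reductase, the product of Gsr, restores the reduced form with NADPH. The transcription factor NFE2L2 drives many of these genes, and KEAP1 marks NFE2L2 for degradation until oxidants or electrophiles modify it. Oocytes are known to supply the early embryo with glutathione as well as with mRNA.

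The transcript targeted by the siRNA had 23.7 and 19.8 FPKM in siRNA replicates 1 and 2, against 147 and 211 FPKM in control replicates 1 and 2 (FPKM, the authors' unit, is fragments per transcript length and sequencing depth), a log2 fold change of -2.97 (SE 0.63) with an adjusted p of 0.745 in limma. The widths of the authors' intervals put the depth at about 11200000 and 11500000 fragments in the siRNA libraries, against 16100000 and 18100000 in the controls. siRNA replicate 2 stood apart from the other libraries. It had 9771 genes at 1 FPKM or more, against 11818 to 12202 in the other 3, and its log2 values correlated with theirs across genes, which are not independent replicates, at no more than 0.651, where the others reached 0.872 to 0.875. Of 3066 tested genes at 20 FPKM or more in both controls, 171 lay under 1 FPKM in siRNA replicate 2 and 0 did in siRNA replicate 1, so results are given for each siRNA library. Mitochondrially encoded mRNA made up 17.9% and 3.41% of summed FPKM in siRNA replicates 1 and 2, against 9.98% and 11.8% in control replicates 1 and 2. The siRNA libraries thus lay on both sides of the controls in this share, and its part in the results was not tested. Summed markers of the 2-cell embryo stood at 829 and 438 FPKM with siRNA and 1247 and 1610 FPKM in controls, with 9 of the 11 markers in the tables at 1 FPKM or more in at least 2 libraries. Summed oocyte and maternal markers stood at 10110 and 4503 FPKM with siRNA and 11930 and 14210 FPKM in controls, with 14 of 14 detected in this way. Dppa3 made up most of these sums (8371 and 3004 FPKM with siRNA, 10130 and 12090 FPKM in controls). The median log2 fold change over the 14 genes was 0.18, with 8 higher and 6 lower, beside -0.39 over all tested genes. Cumulus and granulosa markers summed to 11.7 and 1.5 FPKM with siRNA and 8.66 and 16.1 FPKM in controls (2 of 13 detected, with Amh, Fshr and Col1a1 listed at 0 throughout). Sperm markers summed to 50.9 and 25.8 FPKM with siRNA and 30.7 and 43.8 FPKM in controls (5 of 9, Akap4 at 0), and blood markers to 36 and 9.52 FPKM with siRNA and 35.2 and 34.5 FPKM in controls (5 of 9, Hbb-bs and Tyrobp at 0). Blastocyst lineage markers summed to 51.6 and 74.7 FPKM with siRNA and 75.6 and 109 FPKM in controls (5 of 10, Cdx2, Krt8 and Sox17 at 0). Median log2 fold changes over the tested genes were -1.26 (2 cumulus and granulosa), 0.355 (5 sperm), -1.19 (5 blood) and 0.29 (5 blastocyst lineage). The part of these marker lists in the results below was not tested.

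Of the 9 glutathione genes, 7 stood lower in each siRNA library than in either control: Gpx1, Gpx4, Gsto1, Gclm, Gclc, Gsr and Nfe2l2. Gss was listed at 0 in 1 library of each group, and Keap1 was near the detection limit everywhere. None of these differences passed the test over all genes (limma on log2(FPKM + 1), two-sided, Benjamini-Hochberg adjusted p threshold of 0.05), and neither did any other of the 12390 tested genes, a background of 0% called (738 genes had an unadjusted p under 0.05 in limma, Gpx1 and Gsto1 among them). Genes were tested when they reached 1 FPKM in at least 2 libraries. This kept 8 of the 9 members, all but Keap1, and each of the 8 also reached 1 FPKM in at least 1 siRNA library. Both siRNA libraries lay below both controls in 30.0% of all tested genes, which is the background for the 7 of 8 tested members, and above both controls in 8.60%, which is the background for 0 of 8. The median log2 fold change, siRNA over control, was -1.48 over the 8 tested members and -0.39 over all 12390 genes. The members were chosen with earlier results of these data known, so these contrasts with all tested genes are descriptions. With 2 libraries against 2, an exact two-sided permutation test cannot give a p below 0.333. Fewer cells and less RNA per cell cannot be told apart in such libraries.

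**Figure D1:**
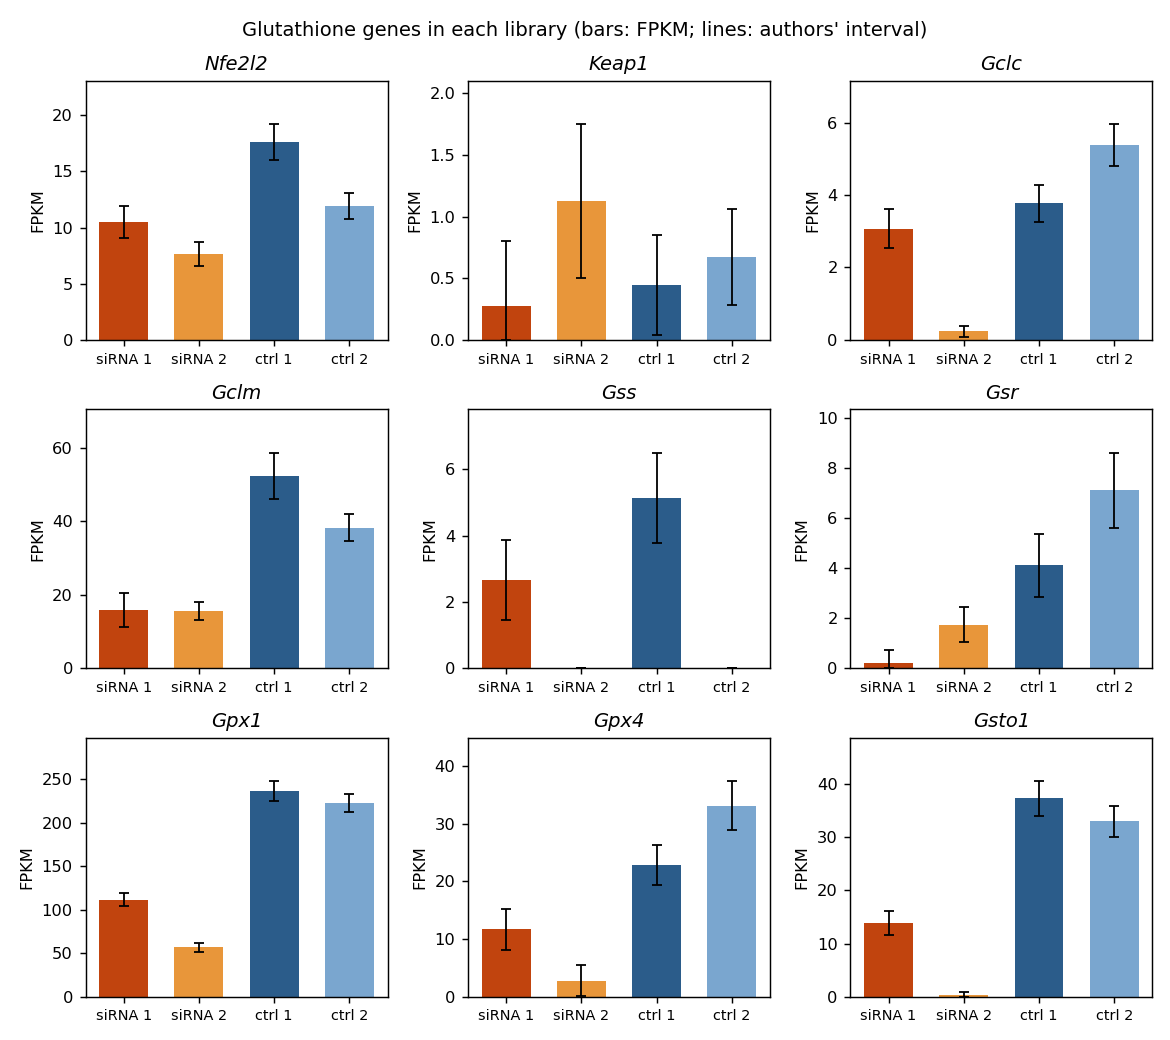
FPKM of each of the 9 genes (vertical axes, 1 scale per gene, from 0) in siRNA replicates 1 and 2 and control replicates 1 and 2; bars are single libraries and lines the authors' lower and upper bounds. In Gpx1, Gpx4, Gsto1, Gclm and Gsr the intervals of both siRNA libraries end below those of both controls, Gss is listed at 0 in 1 library of each group, and the Keap1 intervals overlap.

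Among the genes that use glutathione, Gpx1 had the highest level of the set in every library. Gpx1 encodes a selenium-containing peroxidase of the cytosol and mitochondria that reduces hydrogen peroxide. In GENCODE M21 it has 2 exons on the plus strand, and the deposited tables place it at chr9:108338903-108340343 in mm10. It stood at 112 and 57.1 FPKM in siRNA replicates 1 and 2, against 237 and 223 FPKM in control replicates 1 and 2. Both siRNA libraries were low, replicate 2 the lower, and the groups did not overlap. The means were 84.3 ± 38.5 FPKM with siRNA and 229.6 ± 9.90 FPKM in controls (SD, n = 2 each), and siRNA libraries averaged 36.7% of the controls. The log2 fold change was -1.51 (SE 0.63), with an adjusted p of 0.745 in limma. Among tested genes Gpx1 ranked at percentiles 95.1 and 88.9 with siRNA and 96.8 and 96.6 in controls.

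Gpx4 encodes the peroxidase that reduces phospholipid hydroperoxides within membranes and thereby restrains ferroptosis, and it is also a selenoprotein. The gene lies at chr10:80047166-80056439 on the plus strand. It stood at 11.7 and 2.78 FPKM in siRNA replicates 1 and 2, against 22.9 and 33.1 FPKM in control replicates 1 and 2. The groups did not overlap, and the gap between the siRNA libraries (1.75 on the log2 scale) was wider than that between the controls (0.51). The value in siRNA replicate 2 has the precision of about 4.17 fragments, against 43.8 in siRNA replicate 1 and 172 and 242 in the controls. The means were 7.22 ± 6.29 FPKM with siRNA and 28.0 ± 7.23 FPKM in controls (SD, n = 2 each). The log2 fold change was -2.04 (SE 0.92), with an adjusted p of 0.745 in limma. GENCODE M21 also lists a processed copy, Gpx4-ps2, but the deposited values hold no gene of that name. How reads shared with such a copy were counted is not known, so the Gpx4 level is uncertain.

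Gsto1 encodes an omega-class glutathione transferase with thiol transferase and dehydroascorbate reductase activity. It lies at chr19:47854970-47864790 on the plus strand, inside the span of Cfap43 on the other strand, with which it shares 0 exon bases. It stood at 13.8 and 0.302 FPKM in siRNA replicates 1 and 2, against 37.3 and 32.9 FPKM in control replicates 1 and 2. Both siRNA libraries were below both controls, and siRNA replicate 2 was close to no signal, with the precision of about 1.35 fragments against 153 in siRNA replicate 1 and 522 and 518 in the controls. The means were 7.06 ± 9.56 FPKM with siRNA and 35.1 ± 3.06 FPKM in controls (SD, n = 2 each). Its log2 fold change of -3.04 (SE 1.21) was the largest of the set, with an adjusted p of 0.745 in limma. It was -1.28 with siRNA replicate 1 alone and -4.79 with siRNA replicate 2 alone, so its size rested largely on the library that stood apart.

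These 3 genes are also the shortest of the set. Their longest annotated transcripts measure 1072 bases for Gpx1, 995 for Gpx4 and 1182 for Gsto1, against 2475 (Nfe2l2) to 5589 (Gclm) for the others. Over 2702 tested genes with a longest transcript under 1200 bases, a bound chosen after these lengths were seen, siRNA replicate 1 lay at a median log2 difference of -0.35 from the control mean and siRNA replicate 2 at -1.46. Over the 9650 longer genes it was -0.30 and -0.26. Both siRNA libraries lay below both controls in 39.9% of the shorter genes and 27.3% of the longer ones. Uqcc3, with a transcript of 821 bases, is also among the shorter genes. Gpx1, Gpx4 and Gsto1 stood at -1.03, -1.17 and -1.28 in siRNA replicate 1 and at -1.99, -2.92 and -4.79 in siRNA replicate 2. After a trend on transcript length was removed from each library, their log2 fold changes were -1.13, -1.63 and -2.68, with an adjusted p of 0.734 in limma for each.

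**Figure D2:**
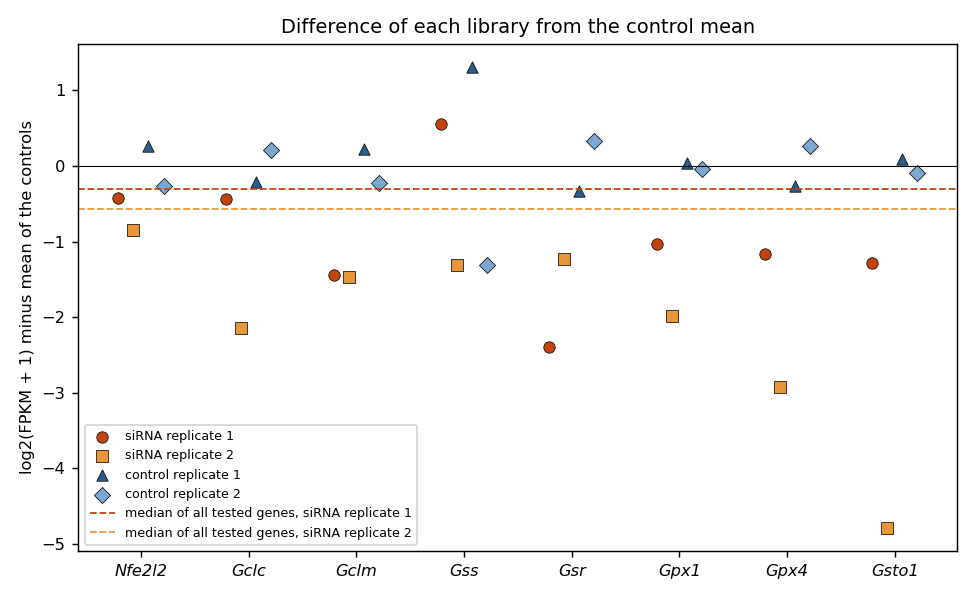
Difference of each library from the mean of the controls on the log2(FPKM + 1) scale (vertical axis) for the 8 tested members; circles and squares are siRNA replicates 1 and 2, triangles and diamonds control replicates 1 and 2, and dashed lines the medians of all tested genes, at -0.30 and -0.57. Gclm has both siRNA libraries at almost the same place, whereas in Gsto1 they lie at -1.28 and -4.79.

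Of the synthesis genes, Gclm had the closest agreement between siRNA libraries. Gclm, the modifier subunit that raises the affinity of the ligase for glutamate and relieves feedback inhibition by glutathione, lies at chr3:122245557-122270732 on the plus strand. It stood at 15.9 and 15.6 FPKM in siRNA replicates 1 and 2, against 52.4 and 38.3 FPKM in control replicates 1 and 2. The siRNA libraries were level with each other in FPKM and both were low. Rescaled to TPM, which gives every library the same total, they stood at 26.7 and 35.7, against 76.7 and 55.1 in controls. The value in siRNA replicate 1 has the precision of about 47.4 fragments, against 152 in siRNA replicate 2. The means were 15.8 ± 0.244 FPKM with siRNA and 45.4 ± 9.94 FPKM in controls (SD, n = 2 each), or 34.7% of the controls. The log2 fold change was -1.45 (SE 0.70), with an adjusted p of 0.745 in limma, and it was -1.44 with siRNA replicate 1 alone and -1.47 with siRNA replicate 2 alone. Its longest transcript is the longest of the set. Of its 6291 annotated exon bases, 244 overlap Gm6061, a processed pseudogene on the same strand, and 296 overlap Gm17494 on the other strand. Reads in the first overlap cannot be assigned by strand, and those in the second only if strand was kept, so the Gclm level is uncertain there.

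Gclc, the catalytic subunit of the same enzyme, was less abundant than Gclm in all 4 libraries per transcript length. It lies at chr9:77754535-77794485 on the plus strand. It stood at 3.08 and 0.240 FPKM in siRNA replicates 1 and 2, against 3.77 and 5.39 FPKM in control replicates 1 and 2. Both siRNA libraries were below both controls, but siRNA replicate 1 was close to control replicate 1 and their authors' intervals overlapped (2.53 to 3.62 FPKM against 3.26 to 4.29 FPKM). The log2 fold change was -1.30 (SE 1.00), with an adjusted p of 0.780 in limma, and it was -0.44 with siRNA replicate 1 alone. The ratio of Gclm to Gclc in FPKM was 5.18 and 64.9 in the siRNA libraries and 13.9 and 7.11 in the controls, so the groups overlapped in this ratio.

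Gss, the enzyme of the final synthesis step, lies at chr2:155563181-155592810 on the minus strand. It stood at 2.66 FPKM in siRNA replicate 1 and was listed at 0 in siRNA replicate 2, against 5.14 FPKM in control replicate 1 and a listed 0 in control replicate 2. The groups overlapped, and the libraries of a group differed more than the groups did. The fitted log2 fold change was -0.37 (SE 1.10), with an adjusted p of 0.947 in limma. It was 0.56 without siRNA replicate 2 and 0.94 without control replicate 1, so its sign rested on single libraries. In siRNA replicate 2, 61 of the 3066 genes at 20 FPKM or more in both controls were also listed at 0, so a listed 0 does not show absence. Of the 5915 exon bases of Gss, 395 overlap Acss2 on the other strand.

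Gsr, which restores reduced glutathione, lies at chr8:33652523-33698163 on the plus strand. It stood at 0.221 and 1.74 FPKM in siRNA replicates 1 and 2, against 4.11 and 7.10 FPKM in control replicates 1 and 2. Here siRNA replicate 1 was the lower of the siRNA libraries, unlike Gpx1, Gpx4, Gsto1 and Gclc, and its value has the precision of about 0.689 fragments. The means were 0.982 ± 1.08 FPKM with siRNA and 5.61 ± 2.12 FPKM in controls (SD, n = 2 each). The log2 fold change was -1.81 (SE 0.95), with an adjusted p of 0.745 in limma, and it was -2.40 with siRNA replicate 1 alone and -1.23 with siRNA replicate 2 alone. On a scale of log2(FPKM + 1) the change of genes as low as Gsr, Gclc, Gss and Keap1 is understated.

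Of the regulators, Nfe2l2 was tested and Keap1 was not. Nfe2l2 lies at chr2:75675513-75704641 on the minus strand and stood at 10.5 and 7.63 FPKM in siRNA replicates 1 and 2, against 17.6 and 11.9 FPKM in control replicates 1 and 2. The groups did not overlap, but siRNA replicate 1 and control replicate 2 were close, and their authors' intervals overlapped. The means were 9.07 ± 2.04 FPKM with siRNA and 14.8 ± 4.03 FPKM in controls (SD, n = 2 each), and the log2 fold change was -0.64 (SE 0.84), with an adjusted p of 0.865 in limma. Its level has the precision of 200 to 494 fragments in the 4 libraries. PCR copies of a molecule are counted separately, so the error from sampling molecules may be larger and was not measured. Rescaled to TPM, which gives every library the same total, Nfe2l2 stood at 17.6 and 17.5 in the siRNA libraries and 25.8 and 17.2 in the controls, and the groups then overlapped. Keap1, at chr9:21229730-21239332 on the minus strand, stood at 0.275 and 1.13 FPKM in siRNA replicates 1 and 2, against 0.445 and 0.673 FPKM in control replicates 1 and 2, and did not pass the filter. Its siRNA values lay on both sides of the controls. Keap1 values have the precision of 1.07 to 13.1 fragments, so neither a difference between the groups nor its absence is shown. Of its 4693 exon bases, 510 overlap Gm16754, an antisense gene.

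NFE2L2, paired with a small MAF protein, is known to bind the antioxidant response element, whose core can be written TGACNNNGC. Because several genes of the set are known targets and had lower values together, the windows from 250 bases before to 50 bases after each annotated start (RefSeq, GRCm38.p6) were searched for this core on both strands. Windows were found for 7 of the 9 members, all but Gclc and Gsr. The core occurred in the windows of 2 of these 7 genes, Nfe2l2 and Gclm, and in those of 14% of 27025 genes. With the looser core TGANNNNGC, of which the first is a special case, Keap1 was added (3 of 7 genes), against 45.0% of all genes. A match in these letters is a description and not a site, and the windows reach only a short way upstream. The matches to the stricter core are printed 5′ to 3′ along the gene, with the core in capitals. That of Nfe2l2 is on the gene's strand and begins 240 bases before the start (chr2:75704885-75704913, minus strand), and that of Gclm is on the opposite strand, so its core reads as the reverse complement, and begins 134 bases before the start (chr3:122245413-122245441, plus strand).
Nfe2l2: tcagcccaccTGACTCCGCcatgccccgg
Gclm: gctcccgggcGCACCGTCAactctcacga

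In FPKM, which is per transcript length, the order of the mean levels in controls was Gpx1, Gclm, Gsto1, Gpx4, Nfe2l2, Gsr, Gclc, Gss and Keap1. Gpx1 was above the others in all 4 libraries. Gsto1 and Gpx4 could not be ordered in controls, since Gsto1 was higher in control replicate 1 (37.3 against 22.9 FPKM) and Gpx4 slightly higher in control replicate 2 (33.1 against 32.9 FPKM). Gsr and Gclc, with 5.61 ± 2.12 and 4.58 ± 1.14 FPKM in controls (SD, n = 2 each), also lay within their spread. In siRNA replicate 1 the order differed among the low genes. Gsr (0.221 FPKM) lay below Gclc and Gss (3.08 and 2.66 FPKM) and close to Keap1 (0.275 FPKM). In siRNA replicate 2 the order also differed, with Gclm and Nfe2l2 next after Gpx1 and with Gsto1, Gclc and Gss under 1 FPKM.

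Scaling between libraries changed how far the members lay from the controls. Summed FPKM were lower in the siRNA libraries, and the median log2 fold change over all 12390 genes, -0.39 in FPKM, became -0.085 after rescaling to TPM, -0.055 with median-of-ratios scaling, 0.012 with quantile normalization and 0.034 with cyclic loess. The median over the 8 tested members was -1.19, -1.06, -1.06 and -0.96 under these 4 scalings, and relative to all tested genes it lay at -1.10, -1.01, -1.08 and -0.99, against -1.09 in FPKM. Gpx1, Gpx4, Gsto1, Gclm and Gsr had both siRNA libraries below both controls under each of them. Nfe2l2 overlapped under all 4, and Gclc under all but the rescaling to TPM. The counts were thus 6, 5, 5 and 5 of 8 tested members, beside 21.4%, 19.1%, 18.7% and 18.5% of all tested genes. No member passed the test under any of them (limma, adjusted p of at least 0.886).

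**Figure D3:**
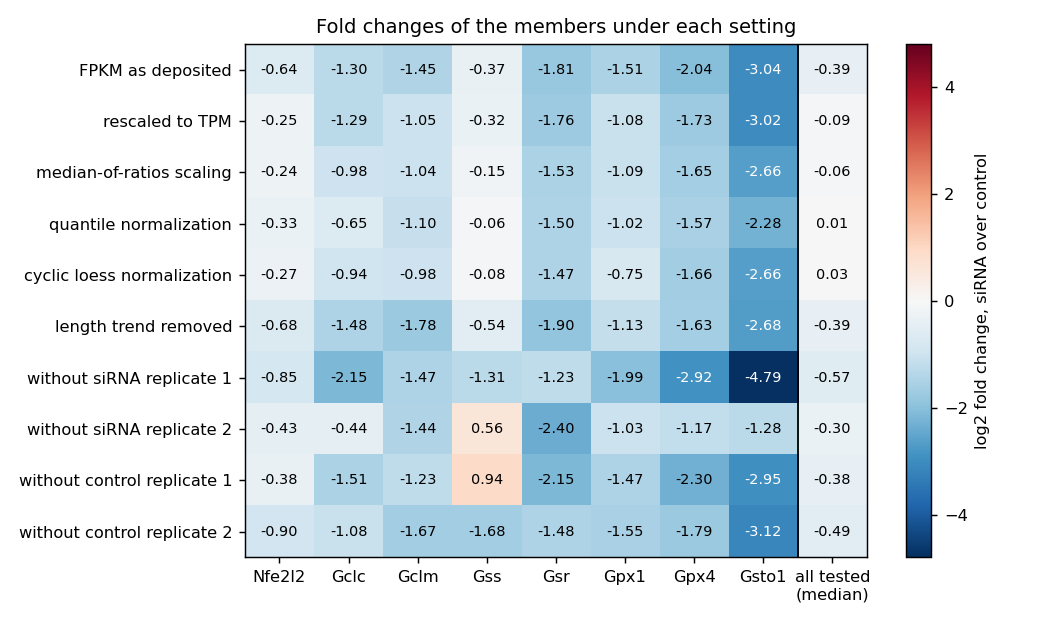
Log2 fold change, siRNA over control, of the 8 tested members and the median of all tested genes (columns) with FPKM as deposited and under 9 other settings (rows); blue is lower and red higher with siRNA. All columns but Gss are blue in every row among the members, and Gss is 0.56 without siRNA replicate 2 and 0.94 without control replicate 1.

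The siRNA libraries agreed on direction more than on size. Each lay below both controls in 7 of the 8 tested members, beside 48.3% of all tested genes in siRNA replicate 1 and 50.5% in siRNA replicate 2. In siRNA replicate 1 the tested members had a median log2 difference from the control mean of -1.10, beside -0.30 over all tested genes. In siRNA replicate 2 these medians were -1.73 and -0.57. When siRNA replicate 2 alone was set against the controls, 1477 genes passed in limma, among them Gpx1, Gpx4 and Gsto1 (adjusted p = 0.0353, 0.0398 and 0.0220), all lower, beside 9.68% of all tested genes called lower and 2.24% called higher. This comparison rests on 1 library, which is assumed to vary like the controls. Gpx1, Gpx4 and Gsto1 are also the shortest members. In siRNA replicate 2, tested genes with a longest transcript under 1200 bases had a median log2 difference of -1.46, against -0.26 in longer genes. The shares called over all tested genes are thus not matched for length, and the share among the shorter genes is not given here. With siRNA replicate 1 alone no gene passed in limma. The log2 fold changes of the 8 tested members then ran from -2.40 (Gsr) to 0.56 (Gss). The Gsr value in that library has the precision of about 0.689 fragments.

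The genes around the set were taken from lists of the pathway, in which no gene passed in limma. These lists too were chosen with earlier results of these data known. Their counts stand beside the same 30.0% of all tested genes below both controls and 8.60% above, and 6 of 20 genes in the next list is that share. Of 34 other glutathione peroxidases, transferases and glutaredoxins, 20 were tested, with a median log2 difference of -0.51, 6 below the controls in both siRNA libraries, 0 above them and 1 unadjusted p under 0.05 in limma. The most abundant of them, Gstm5, a mu-class transferase, stood at 229.8 and 34.9 FPKM with siRNA and 197 and 272 FPKM in controls, so the groups overlapped. Glrx5, a mitochondrial glutaredoxin of iron-sulfur cluster assembly, stood at 101 and 85.3 FPKM with siRNA, below the 169 and 185 FPKM in controls (log2 fold change -0.92, SE 0.58). Mgst3, a microsomal transferase, stood at 65.3 and 2.38 FPKM with siRNA and 73.1 and 109 FPKM in controls. Glrx2, the other mitochondrial glutaredoxin, stood at 19.6 and 56.6 FPKM with siRNA and 50.4 and 49.1 FPKM in controls, on both sides of them.

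Genes of glutathione turnover and precursor supply had a median of 0.059 over 22 tested genes, with 3 below both controls and 1 above. Ggct, which acts on gamma-glutamyl peptides, stood at 314 and 288 FPKM with siRNA and 310 and 356 FPKM in controls (log2 fold change -0.14, SE 0.57). Cth, which makes cysteine from cystathionine, stood at 158 and 26.3 FPKM with siRNA and 95.8 and 116 FPKM in controls. Mat2a and Mat2b, the subunits of methionine adenosyltransferase, had log2 fold changes of 1.17 (SE 0.95) and 0.21 (SE 0.66). The gene above both controls, named here after its values were seen, was Slc7a11, the cystine carrier of the glutamate exchanger. It stood at 1.47 and 5.47 FPKM with siRNA and 0.710 and 1.14 FPKM in controls (log2 fold change 1.06, SE 0.90, adjusted p = 0.799 in limma). Its partner subunit Slc3a2, 1 of the 3 below, stood at 18.6 and 22.6 FPKM with siRNA and 42.1 and 51.9 FPKM in controls, and the others below were Slc1a4 and Hagh.

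Genes of NADPH supply, on which glutathione reductase depends, had a median of -0.055 over 12 tested genes, with 2 below both controls and 1 above. Mthfd2, Me1 and Me2 had log2 fold changes of 0.02, 0.36 and -0.20, and G6pdx, which opens the pentose phosphate pathway, stood at 23.2 and 0.879 FPKM with siRNA and 26.9 and 19.0 FPKM in controls. The genes below were Nadk (log2 fold change -0.99, SE 0.88) and Taldo1 (-2.41, SE 0.94). Taldo1 stood at 2.14 and 2.89 FPKM with siRNA and 24.5 and 12.5 FPKM in controls, and it is counted again among the targets of NFE2L2 below. The gene above was Me3, at 1.79 and 5.07 FPKM with siRNA and 0.505 and 0.0931 FPKM in controls. In this list 1 gene had an unadjusted p under 0.05 in limma. Genes of selenoprotein synthesis, needed to make GPX1 and GPX4, had a median of -0.18 over 11 tested genes, with 3 below both controls (Rpl30, Trnau1ap and Secisbp2) and 1 above (Lrp8). Trnau1ap stood at 79.1 and 64.8 FPKM with siRNA and 131 and 82.5 FPKM in controls, Rpl30 had a log2 fold change of -0.89 (SE 0.66), and Sephs2 and Pstk had -0.18 and 0.36.

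Partners and targets of NFE2L2 had a median of -0.51 over 24 tested genes, with 6 below both controls, 2 above (Slc7a11 and Maff) and 2 with an unadjusted p under 0.05 in limma. The ferritin subunits were the most abundant. Ftl1 stood at 372 and 71.1 FPKM with siRNA and 664 and 850.2 FPKM in controls (log2 fold change -2.20, SE 0.83, adjusted p = 0.745 in limma), and Fth1 at 786 and 182 FPKM with siRNA and 984 and 1047 FPKM in controls. Both have processed copies in the mouse genome, so their values are uncertain. Cul3 and Rbx1, which with KEAP1 form the ligase that marks NFE2L2, had log2 fold changes of 0.76 (SE 0.76) and -0.65 (SE 0.65). The peroxiredoxins, thioredoxins, dismutases and catalase, the other main peroxide and superoxide defence, had a median of -0.67 over 15 tested genes, with 6 below both controls and 0 above. Prdx2 stood at 708 and 927 FPKM with siRNA and 914 and 877 FPKM in controls, Sod1 at 124 and 111 FPKM with siRNA and 163 and 190.1 FPKM in controls, and Prdx1 and Prdx4 had log2 fold changes of -1.63 and -1.12. The difference between this list and the 9 glutathione genes was not tested. The 2-cell embryo markers, a list outside the pathway, had a median of -1.47 over 9 tested genes, with 6 below both controls and 0 above, close to the -1.48 of the 8 tested members.

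**Figure D4:**
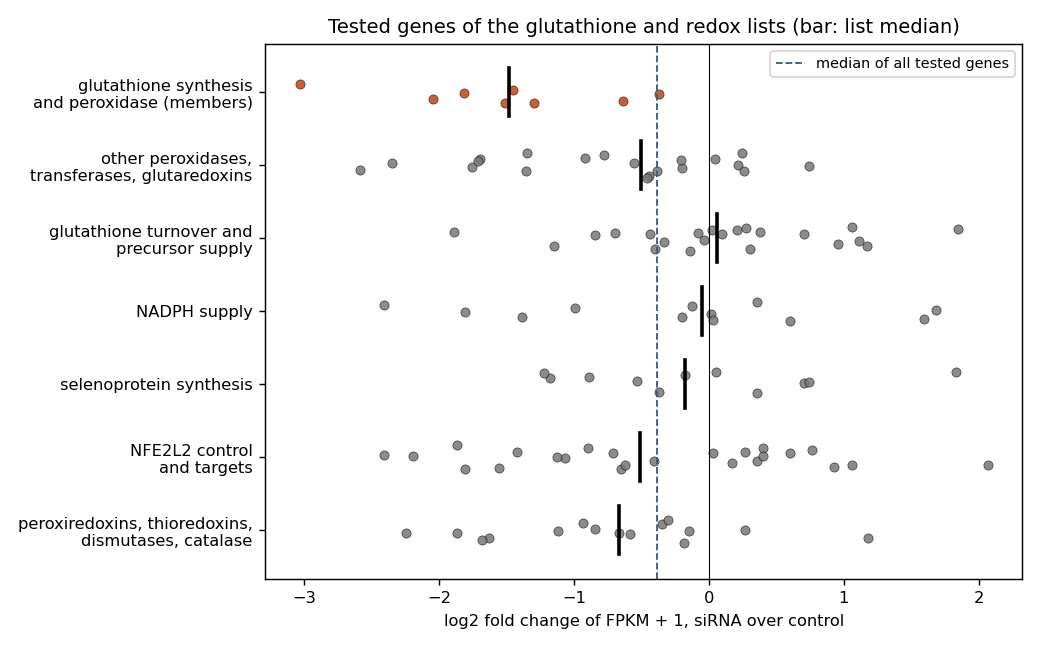
Log2 fold change of FPKM + 1, siRNA over control (horizontal axis), for the tested genes of the 9-gene set and of 6 other glutathione and redox lists; points are genes, black bars list medians, and the dashed line is the median of all tested genes at -0.39. The 8 tested members lie between -3.04 and -0.37 with a median of -1.48, and the medians of the 6 other lists lie between -0.67 and 0.059; the 2-cell embryo markers, not drawn, have -1.47.

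Among the genes whose values over the 4 libraries were nearest to the median profile of the tested members were Dnajb9, Cox6b1, Mdp1 and Obox6. Nearness was the Euclidean distance between log2(FPKM + 1) values centred on each gene's mean, over 4 libraries and among 6103 genes with a mean of at least 5 FPKM, and it was 0.06 to 0.13 for these genes against a median of 1.85 over all 6103. The members themselves lay 0.12 (Gpx1) to 2.37 (Gsto1) from their median profile, so Gpx1 lay nearest to that profile and Gsto1, Gss and Gsr farthest from it. Dnajb9, an endoplasmic reticulum co-chaperone, stood at 412 and 210.0 FPKM with siRNA and 789 and 814 FPKM in controls. With 4 libraries many genes can lie near any profile, and the likeness is a description.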

How the data were processed

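RNA of late 2-cell mouse embryos was measured in 2 Uqcc3 siRNA and 2 control libraries, grouped by their treatment label. Replicates were numbered in accession order, since the labels carry no replicate numbers. Per the labels' protocols, oligo(dT)-primed full-length cDNA was amplified for 18 cycles, made into libraries with 15 more and sequenced in pairs of 150 bases. For each library the authors deposited FPKM values with lower and upper bounds, per the file headers. Cufflinks 2.2.1, Cuffdiff 2.2.1, STAR 2.7.3a, Trim Galore 0.6.5, SAMtools 1.7 and the build mm10 appear in the submitters' processing notes. The annotation release and strandedness are not given in the sources used here.

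Rows of 1 gene identifier were summed, and genes with a failed estimate were left out. Genes reaching 1 FPKM in 2 or more libraries were tested on log2(FPKM + 1) in limma 3.58.1 (R 4.3.3), with a trend of the prior variance on abundance, and p-values were adjusted over all 12390 genes. The fit was tested on simulated data with large planted changes. Their recovery was required only at a spread well below the SEs of the members, so this does not show power in these libraries. The upper bound was read as 2 errors above the value, and the fragments behind a value as the squared ratio of the value to 1 error. For genes with several transcripts this is a precision and not a count. Among genes with 1 transcript and up to 30 such fragments, 70.3% to 75.7% came out whole within 0.05. Depth was the median of fragments over FPKM times length in such genes with 1 transcript. Both cover counting error alone, because PCR copies of a molecule are counted separately. Coordinates are those of the deposited tables, written from 1. Identifiers were matched to GENCODE M21 without their version (99.1%), which gave strand, exons, overlaps and the longest transcript. The members and lists were chosen with earlier results of these data known. From each other list the text names the 4 tested genes with the highest mean FPKM, and any others only where it says so or completes a count. 15 alternatives were run, 1 of them, a replicate block, chosen after seeing the data. Of the genes with the nearest profiles, 1 is not reported here.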

Additional observations from a re-analysis of the deposited data

How the results depend on the processing

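Over 15 alternatives (pseudocounts of 0.1 and 5, no filter and a filter at 5 FPKM, 4 scalings, a length correction, no abundance trend, a replicate block and each library left out), 0 genes and 0 members passed in limma except without siRNA replicate 1 (1477 genes, 3 members) and with the replicate block (1 gene, 0 members). Counts without 1 library ranged from 0 to 1477 genes and from 0 to 3 members. The median log2 difference of members moved by more than the SD of that median between siRNA libraries (0.442) only with cyclic loess (-0.96). This SD rests on 2 libraries. With a pseudocount of 5, median-of-ratios scaling and quantile normalization the median was -1.04, -1.06 and -1.06, nearly as far from -1.48. Uqcc3 ranged from -3.23 to -2.71 with 1 library left out and passed only without siRNA replicate 1 (-3.09, adjusted p = 0.0238 in limma). With 1 library left out Gss ranged from -1.68 to 0.94, and it reversed without control replicate 1 (0.94) and without siRNA replicate 2 (0.56), where 1 of its 2 values above 0, or 1 of its 2 listed zeros, was left out. Gpx1, Gpx4 and Gsto1 passed only without siRNA replicate 1 (-1.99, -2.92 and -4.79). Gpx1, Gpx4, Gsto1, Gclm and Nfe2l2 were lower in all 15 alternatives, and Gclc and Gsr in all 14 that tested them. Keap1 was tested only without a filter (0.083, adjusted p = 0.963 in limma). The cause of these changes was not tested. Counting error is wide for Keap1 in every library, with the precision of at most 13.1 fragments. Of the values above 0, that of Gsr in siRNA replicate 1 has the least precision, about 0.689 fragments. The 2 listed zeros of Gss carry bounds of 0, so their counting error is not described. The labels carry no replicate numbers, but names of the deposited tables share a number between siRNA replicate 1 and control replicate 2 and another between the remaining libraries. Deviations of same-numbered libraries from their group means correlated at 0.058 across genes, and whether a number marks a shared day was not given. With these numbers as a replicate block, chosen after seeing the data, 1 gene passed, against 0 without it, and no call on a member or Uqcc3 changed.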
